A study of Mus musculus with 31 samples.

Results

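Heat shock proteins and molecular chaperones were followed in whole brain across 31 BXD/TyJ mouse strains. The genes were taken from the array's probe annotation. They comprise every gene with a single symbol beginning Hspa, Hspb, Hspd, Hspe or Hsph with a number, Hsp90, Dnaja, Dnajb or Dnajc with a number, Cct2 to Cct8, Bag1 to Bag6, and the genes Tcp1 and Cryab. This rule found 81 of the 15096 named genes on the array, measured by 89 of 16874 probes with 1 gene symbol.

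BXD strains are recombinant inbred lines made by inbreeding the offspring of C57BL/6J crossed to DBA/2J, so each line carries a fixed mosaic of the parents' genomes. Per the labels, all mice were males aged 8 weeks, and brain RNA of 3 animals of a strain was pooled and hybridised on 1 array with C57BL/6J brain RNA in the other channel. Strain RNA carried the dye Alexa Fluor 647 on every array, and the C57BL/6J RNA, to which a spike-in mix had been added, carried Alexa Fluor 555. No dye swaps were made. The strain numbers form 2 sets, with 7 strains numbered from 33 to 42 and 24 strains numbered up to 32.

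Each value is a log ratio of the 2 channels for 1 spot on 1 array. Its direction is not stated. The labels' titles and order of channels make strain over C57BL/6J likely, and the base of the logarithm was taken as 2. Strain and array cannot be told apart with 1 array per strain, and a constant effect of dye or spot enters a probe's mean in full. The values are ratios, so they give no level of any gene and no check of the tissue by marker levels. In whole tissue, fewer cells of a type and less RNA per cell cannot be told apart either.

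Molecular chaperones bind unfolded or misfolded proteins and help them fold, assemble, cross membranes or reach degradation. HSP70 proteins do so in cycles of ATP binding and hydrolysis. In these cycles J proteins deliver the client and stimulate hydrolysis, while HSP110 and several Bag proteins release the nucleotide. Chaperonins enclose clients in a ring, and small heat shock proteins hold them until an ATP-driven chaperone takes over. In neurons this machinery also strips clathrin from synaptic vesicles and keeps vesicle proteins functional over long lifetimes. Many of the genes are induced by heat shock factors, which bind inverted repeats of the pentamer nGAAn in their promoters, called heat shock elements.

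Those elements were searched for in the promoters because heat induction is the feature that named the family. RefSeq windows from 250 bases before to 50 bases after the transcription start (assembly GRCm38.p6) were matched to 66 of the 81 genes, with 85 windows in all. Elements of 2 repeats were written as GAANNTTC or TTCNNGAA, where N is any base. Elements of 3 repeats add a further GAA or TTC in the same alternation, again after 2 bases of any kind, and both strands were searched. Those of 3 repeats were found for 4 genes, Hspd1, Hspe1, Dnajb6 and Hsph1, which are 6.06% of the 66 genes, against 179 of 27025 genes with a window (0.662%). Windows of 1 gene overlap, so the 6 member windows with a match (7.06% of 85, against 0.603% of all windows) held 3 separate elements, 1 shared by Hspd1 and Hspe1 and 1 each at Dnajb6 and Hsph1. Those of 2 repeats, which every element of 3 repeats also holds, were found for 17 of the 66 genes. They lay in 22.4% of the 85 member windows, against 15.1% of all windows. One window is shown for each of 3 genes, with the bases of the 3-repeat matches, including those that overlap, in capitals. They show the element on a shared promoter of a chaperonin pair, just before the start of a J protein gene, and just after the start of an HSP110 gene. Hspe1 lies at chr1:55087898-55088197 on the + strand, Dnajb6 at chr5:29735648-29735947 on the + strand and Hsph1 at chr5:149636287-149636586 on the − strand.
Hspe1: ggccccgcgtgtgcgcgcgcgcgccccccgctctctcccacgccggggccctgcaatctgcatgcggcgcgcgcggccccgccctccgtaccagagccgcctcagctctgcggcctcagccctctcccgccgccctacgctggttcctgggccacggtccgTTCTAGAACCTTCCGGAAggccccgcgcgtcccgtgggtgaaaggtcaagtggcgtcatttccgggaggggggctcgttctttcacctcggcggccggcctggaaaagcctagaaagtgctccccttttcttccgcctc
Dnajb6: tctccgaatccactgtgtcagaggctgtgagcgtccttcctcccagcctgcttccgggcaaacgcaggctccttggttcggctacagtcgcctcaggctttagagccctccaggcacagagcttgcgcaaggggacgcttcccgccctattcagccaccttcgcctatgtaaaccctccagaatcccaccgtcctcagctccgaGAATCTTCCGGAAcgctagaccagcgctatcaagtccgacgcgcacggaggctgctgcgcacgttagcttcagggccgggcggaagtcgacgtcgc
Hsph1: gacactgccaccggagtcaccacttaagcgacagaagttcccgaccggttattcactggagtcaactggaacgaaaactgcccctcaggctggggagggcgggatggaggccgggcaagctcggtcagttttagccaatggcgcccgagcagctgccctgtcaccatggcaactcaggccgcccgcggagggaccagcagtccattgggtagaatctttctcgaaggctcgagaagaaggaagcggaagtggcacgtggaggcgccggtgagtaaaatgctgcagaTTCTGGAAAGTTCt

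The Hspe1 window overlaps that of Hspd1 by 285 bases on the opposite strand, so both genes share 1 element. The first match began 89 bases before the annotated start of Hspe1 and 46 bases before that used for Dnajb6, and 36 bases after that used for Hsph1. A match describes the letters in the window only. The median mean log ratio was −0.14 over the 4 genes with 3 repeats, 0.05 over the 17 genes with 2 or more, and −0.00445 over the 49 genes with a window and no match.

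Across all members, the mean log ratio over the 31 arrays differed from 0 for 60 of 81 genes (limma, Benjamini-Hochberg adjusted p under 0.05 over 21262 features), against 76.1% of all features. Of these, 27 had a positive mean, against 42.1% of all features, and 33 a negative mean, against 33.9%. As shares of the 81 genes these were 33.3% and 40.7%. The median over members was −0.03, against 0.04 over all features. The family was thus called about as often as other features, with 33 of its 60 calls on the negative side.

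Negative calls were most frequent at 1 place on the array. When spots are counted in runs of 8 by their number in the annotation, 19 member probes fell at place 8, and 18 of them had a negative mean. The mean at place 8 was −0.72 (SD 0.49 over 19 member probes), and 17 were called negative and 1 positive. The 1932 other named probes at place 8, Gapdh left out, had a mean of −0.54 (SD 0.49), and of all 1951 named probes there 80.1% were called negative and 7.02% positive. At places 1 to 7 the 70 member probes had a mean of 0.04 (SD 0.30), with 29 called positive and 19 negative. The 14621 other named probes there also had a mean of 0.04 (SD 0.35), with 46.5% called positive and 27.8% negative. The place 8 shift is thus shared with unrelated genes, and its part in the members' negative values was not tested.

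**Figure D1:**
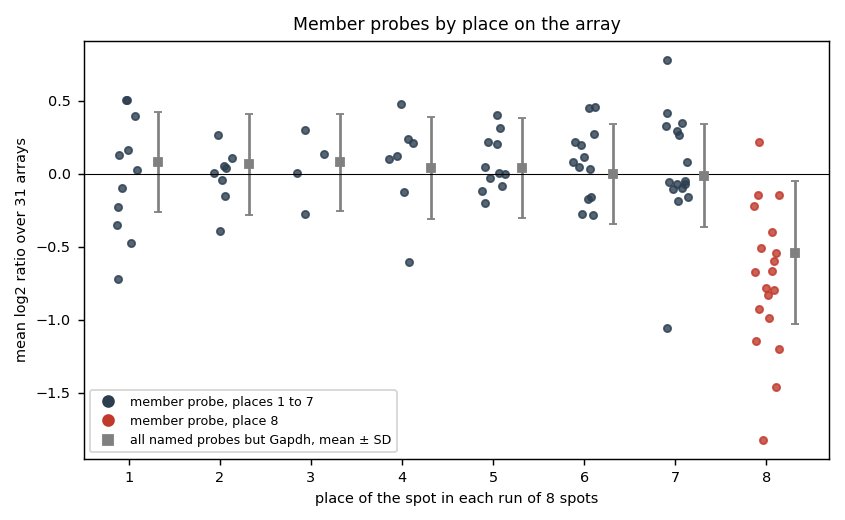
Mean log2 ratio over 31 arrays of each member probe (points) against its place in a run of 8 spots, with the mean ± SD of named probes other than Gapdh at each place (squares and bars). Member probes at place 8 (red) lie below 0 in 18 of 19 cases, and the grey mean at place 8 lies below those of places 1 to 7.

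Without probes at place 8, 64 member genes remained, and 44 of them were called, against 74.5% of 18875 features. The counts were then 27 positive (42.2%, against 46.7% of features) and 17 negative (26.6%, against 27.8%). When each place was instead centred on its median on each array, which keeps all 81 genes, 55 members were called, against 73.6% of features. Of these, 23 were positive (28.4%, against 38.9%) and 32 negative (39.5%, against 34.7%), so the negative count fell when place 8 was left out and stayed near 33 when places were centred. All probes lay at place 8 for 17 genes, each of which is named as such with its values, and Hspa8 and Dnajc2 each had 1 of several probes there.

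**Figure D2:**
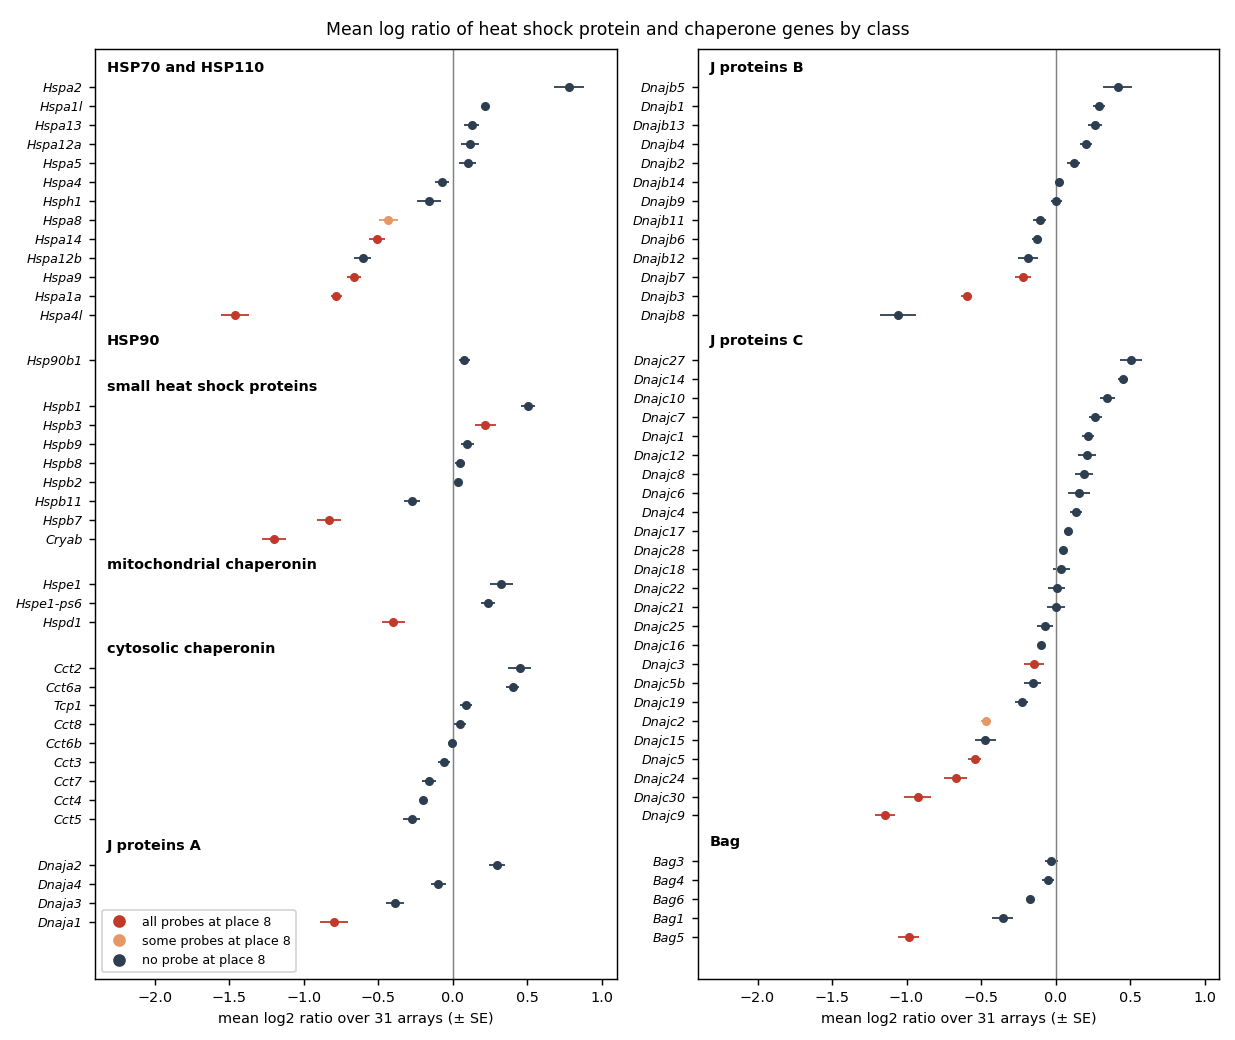
Mean log2 ratio ± SE over 31 arrays for each of the 81 genes, ordered within its class, with colours for genes whose probes lie all, partly or not at place 8. Hspa2 has the highest mean (0.78) and Hspa4l the lowest (−1.46), and all red points but that of Hspb3 lie below 0.

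In the HSP70 and HSP110 class, 3 of 13 genes were called positive (23.1%, against 42.1% of all features) and 6 negative (46.2%, against 33.9%). The class median was −0.16, against 0.04 over all features. Without probes at place 8, 9 genes remained, with 3 called positive (33.3%, against 46.7%) and 2 negative (22.2%, against 27.8%). The class median was then 0.10, against 0.08. Hspa4l, an HSP110 protein that releases nucleotide from HSP70, had the lowest mean of any member. Its log ratio ranged from −2.23 in BXD29 to 0.57 in BXD27, with a median of −1.65, and 30 of 31 arrays lay below 0. Its mean was −1.46 ± 0.09 (SE, n = 31; limma adjusted p = 2.45e-15), with its probe at place 8. Only 89 of the 1951 named probes at place 8 had a lower mean.

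Hspa1a, the stress-inducible HSP70, was below 0 on all 31 arrays. It ranged from −1.20 in BXD36 to −0.41 in BXD5, with a median of −0.75 and a mean of −0.78 ± 0.04. Its probe, too, lies at place 8, where 584 probes had a lower mean. Signal from a near-identical HSP70 copy cannot be told apart, since probe sequences were not used. Its chromosomal neighbour Hspa1l, the testis-enriched HSP70, which had no probe at place 8, averaged 0.22 ± 0.03.

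Hspa9, the mitochondrial HSP70 that pulls proteins into the matrix, averaged −0.66 ± 0.05 and was also below 0 on every array. Hspa14, which works at the ribosome with Dnajc2, averaged −0.51 ± 0.05. Both probes lie at place 8. Once the median of place 8 on each array had been subtracted, Hspa9 still averaged −0.22 (limma adjusted p = 3.90e-05), and Hspa14 averaged −0.07 (adjusted p = 0.137).

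Hspa12b, a distant HSP70 relative enriched in mouse endothelium, was negative without a probe at place 8. It ranged from −1.32 in BXD22 to 0.04 in BXD38, with a median of −0.61 and a mean of −0.60 ± 0.06 (limma adjusted p = 2.29e-11). In the endothelium list of 5 markers the counts ran the other way, with 4 positive and 1 negative. These were 80% and 20%, against 42.1% and 33.9% of all features. Among those markers Cldn5 averaged 0.53, Pecam1 0.61 and Kdr 0.45, whereas Slc2a1 averaged −0.59. The part of endothelial cell number in the Hspa12b value was not tested.

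Hspa2, an HSP70 required in meiosis of male germ cells and also present in brain, had the highest mean of the family at 0.78 ± 0.10 (limma adjusted p = 3.38e-08). It ranged from −0.10 in BXD19 to 2.18 in BXD6, with a median of 0.61, and 30 arrays lay above 0. The highest values came from 7 arrays that stand apart, described further below.

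Hspa8, the constitutive HSP70 that uncoats clathrin vesicles, averaged −0.43 ± 0.06, and 27 of 31 arrays lay below 0. Here the probe at place 1 carried the negative value, at −0.72, and the probe at place 8 averaged −0.14. Hspa5, the HSP70 of the endoplasmic reticulum, averaged 0.10 ± 0.06 (adjusted p = 0.0992), as the mean of probes at 0.40 and −0.20. Hsph1, an HSP110 protein, averaged −0.16 ± 0.08 (adjusted p = 0.0725). Its median was −0.08, with BXD33 far below at −2.05, BXD32 at −1.11 and BXD15 at −0.89.

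Among the members the HSP90 class held only Hsp90b1, which encodes the HSP90 of the endoplasmic reticulum. The log ratio of Hsp90b1 ranged from −0.45 in BXD8 to 0.42 in BXD29 around a median of 0.06, and the mean was 0.08 ± 0.03 (limma adjusted p = 0.0398). That call was lost when arrays or places were centred on their median, at 0.07 each. Trap1, a mitochondrial HSP90 that the selection rule leaves out, is given with the other folding genes, and cytosolic HSP90 genes were not analysed here.

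Among the 8 small heat shock proteins, 3 genes were called positive (37.5%, against 42.1% of all features) and 3 negative (37.5%, against 33.9%). The median was 0.04. Cryab, the alpha-B crystallin of lens, muscle and glia, had log ratios below 0 on all 31 arrays, from −1.98 in BXD29 to −0.28 in BXD28, with a median of −1.33. Its mean was −1.20 ± 0.08 (limma adjusted p = 4.92e-15) at place 8, where 212 of 1951 probes had a lower mean, and −0.76 after subtraction of the place median. Hspb2, the muscle small heat shock protein gene next to Cryab on chromosome 9, averaged 0.03 ± 0.03 (adjusted p = 0.306) without a probe at place 8. Of these neighbours only Cryab was called.

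Hspb7, the cardiovascular small heat shock protein, averaged −0.83 ± 0.08 at place 8, with 30 arrays below 0 and BXD16 alone above, at 0.99. Hspb3, known from muscle, was the exception at place 8. It averaged 0.22 ± 0.07 (limma adjusted p = 0.00593), and 1882 of the 1951 probes at that place had a lower mean. Its sign depended on the arrays, with a mean of −0.08 over the 16 arrays of the largest array group.

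Hspb1, the stress-inducible HSP27 that protects the cytoskeleton and blocks apoptosis, had the highest mean of its class. It ranged from −0.06 in BXD28 to 1.11 in BXD27, with a median of 0.50, and only BXD28 and BXD36 lay below 0. The mean was 0.51 ± 0.05 (limma adjusted p = 5.71e-11) without a probe at place 8. Hspb11, which serves as an intraflagellar transport protein, averaged −0.27 ± 0.06.

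The mitochondrial chaperonin is a barrel of Hspd1 capped by a lid of Hspe1, and both genes are read from the shared promoter shown above. Hspe1 averaged 0.33 ± 0.08 (limma adjusted p = 0.00027), with a range from −0.55 in BXD8 to 1.28 in BXD11. Hspd1 averaged −0.40 ± 0.08 (adjusted p = 2.36e-05) at place 8, with a range from −1.31 in BXD2 to 0.74 in BXD28. Over all 31 arrays the barrel and lid genes thus had opposite signs. After subtraction of the place median Hspd1 averaged 0.04 (limma adjusted p = 0.546). The signs depended on the array groups described further below. Hspe1 averaged −0.15, 0.12 and 0.64 in array groups 1, 2 and 3, and Hspd1 0.04, −0.39 and −0.60. Hspe1-ps6, annotated as a pseudogene of the lid, averaged 0.24 ± 0.05. Signal from Hspe1 on that probe cannot be told apart.

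The cytosolic chaperonin folds actin and tubulin in a double ring of 8 kinds of subunit, and none of its probes lies at place 8. Of its 9 genes, 3 were called positive (33.3%, against 42.1% of all features) and 3 negative (33.3%, against 33.9%), and the median was −0.00445. Cct2 averaged 0.45 ± 0.08 and Cct6a 0.40 ± 0.04. On the negative side, Cct5 averaged −0.28 ± 0.06, Cct4 −0.20 ± 0.03 and Cct7 −0.16 ± 0.05. The third positive call was Tcp1, at 0.09 ± 0.04 (limma adjusted p = 0.0359). It was lost with arrays centred on their median (0.08), with places centred (0.06) and without the 8 arrays of array group 2, described further below (0.06). Cct6b, the testis form of the sixth subunit, averaged −0.00445 ± 0.03.

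J proteins of the A class resemble the bacterial DnaJ most closely. Dnaja1, a cytosolic partner of Hspa8, averaged −0.80 ± 0.09 at place 8 (limma adjusted p = 3.64e-09). It ranged from −1.70 in BXD24 to 0.42 in BXD6, with a median of −0.69. Dnaja3, the mitochondrial member, averaged −0.39 ± 0.06 and Dnaja2, a cytosolic member, 0.30 ± 0.05, both without a probe at place 8. Dnaja4 averaged −0.10 ± 0.05 (adjusted p = 0.0787).

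Of the 13 J proteins of the B class, 5 were called positive (38.5%, against 42.1% of all features) and 6 negative (46.2%, against 33.9%). The median was 0.01. Dnajb8, which suppresses protein aggregation and is best known from testis, was the lowest at −1.06 ± 0.12 (limma adjusted p = 1.46e-09). Its probe lies at place 7. The log ratio ranged from −2.50 in BXD12 to 0.02 in BXD32, with a median of −0.96, and 30 of 31 arrays lay below 0. Dnajb3, also known from testis, averaged −0.59 ± 0.04 and was below 0 on all arrays, at place 8. Dnajb7 averaged −0.22 ± 0.05 at place 8, a higher mean than 1386 of the 1951 probes there. After subtraction of the place median Dnajb7 averaged 0.22 (limma adjusted p = 0.0003).

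Dnajb1, the heat-inducible partner of HSP70, averaged 0.29 ± 0.04 (limma adjusted p = 8.12e-08), with 28 of 31 arrays above 0. Dnajb13, an axonemal protein of sperm and cilia, averaged 0.27 ± 0.05. Dnajb4 averaged 0.21 ± 0.04, and Dnajb6, which suppresses aggregation of polyglutamine proteins, −0.12 ± 0.03. In the endoplasmic reticulum, Dnajb9 averaged 0.01 ± 0.04 and Dnajb11 −0.11 ± 0.04. The negative mean of Dnajb11 was past the limma threshold (adjusted p = 0.0299), and Dnajb9 was not distinguishable from 0 (adjusted p = 0.90).

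Of the 25 J proteins of the C class, 9 were called positive (36%, against 42.1% of all features) and 9 negative (36%, against 33.9%). The median was 0.01. Dnajc9, a histone chaperone, averaged −1.14 ± 0.07 (limma adjusted p = 3.7e-16), from −2.16 in BXD29 to −0.33 in BXD11. Dnajc30, a mitochondrial protein of neurons linked to ATP synthase, averaged −0.92 ± 0.09, and Dnajc24, which takes part in diphthamide synthesis, −0.67 ± 0.07. Dnajc5, the cysteine string protein of synaptic vesicles, averaged −0.54 ± 0.04. All of these probes lie at place 8, and all of these genes were below 0 on every array. After subtraction of the place median Dnajc9 averaged −0.70, Dnajc30 −0.48, Dnajc24 −0.23 and Dnajc5 −0.10, each still past the limma threshold. Dnajc3, an inhibitor of the kinase PERK, averaged −0.14 ± 0.07 at place 8 (adjusted p = 0.058). It averaged 0.30 after subtraction of the place median (limma adjusted p = 0.000825).

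Dnajc14, a protein of the endoplasmic reticulum membrane, was the only member above 0 on all 31 arrays. It ranged from 0.01 in BXD36 to 0.74 in BXD13, with a median of 0.47 and a mean of 0.45 ± 0.03 (limma adjusted p = 1.82e-13). Dnajc27, which joins a J domain to a Rab-like GTPase, averaged 0.51 ± 0.08. Dnajc10, a disulfide reductase of the endoplasmic reticulum, averaged 0.35 ± 0.05. None of these has a probe at place 8. In all, 10 members had 1 sign on every array and were called, against 10.2% of all features. Of these, 9 were negative, 8 of them with all probes at place 8, and the other was Dnajc2.

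Several Bag proteins release nucleotide from HSP70 through a shared domain. Of the 5 members 0 were called positive, against 42.1% of all features, and 3 negative (60%, against 33.9%). Bag5, which also inhibits the ubiquitin ligase parkin, averaged −0.99 ± 0.07 at place 8 (limma adjusted p = 1.61e-14), with BXD16 alone above 0. Bag1, which links HSP70 to the proteasome, averaged −0.35 ± 0.07, and Bag6, which hands tail-anchored proteins to the membrane, −0.17 ± 0.03. Bag4 averaged −0.05 ± 0.04 (adjusted p = 0.261). Bag3, which directs clients to autophagy with Hspb8, averaged −0.03 ± 0.04 (adjusted p = 0.539).

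Separate probes of a gene bear on how far 1 probe stands for its gene, and 7 members had more than 1. The largest gap was within Dnajc2, the ribosome-associated partner of Hspa14. Its probe at place 8 averaged −1.82, with a range from −2.50 to −0.84. The probe at place 5, annotated to the same transcript, averaged 0.31, from 0.01 to 0.76, and the probe at place 2 averaged 0.11. The ranges of the probes at places 8 and 5 did not overlap. The gene mean of −0.47 ± 0.03 therefore combined opposite signs, and it was 0.21 without the probe at place 8.

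Gaps also appeared away from place 8. Dnajc1, a J protein of the endoplasmic reticulum membrane, had probes at −0.04 and 0.48, and Tcp1 had probes at −0.09 and 0.26. The Cct4 probes averaged −0.12 and −0.28. Only Dnajb4 had near-equal means, at 0.21 and 0.20. Correlations over strains between probes of 1 gene were taken within the array groups described below, a check chosen after the data were seen. The 27 values had a median of −0.06, 12 were positive, and 0 passed an adjusted permutation p of 0.05, with 4 under 0.05 unadjusted. The highest in the largest array group was that of Dnajb4, with r = 0.580 and rho = 0.635 over 16 strains (permutation p = 0.0164, adjusted p = 0.312).

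**Figure D3:**
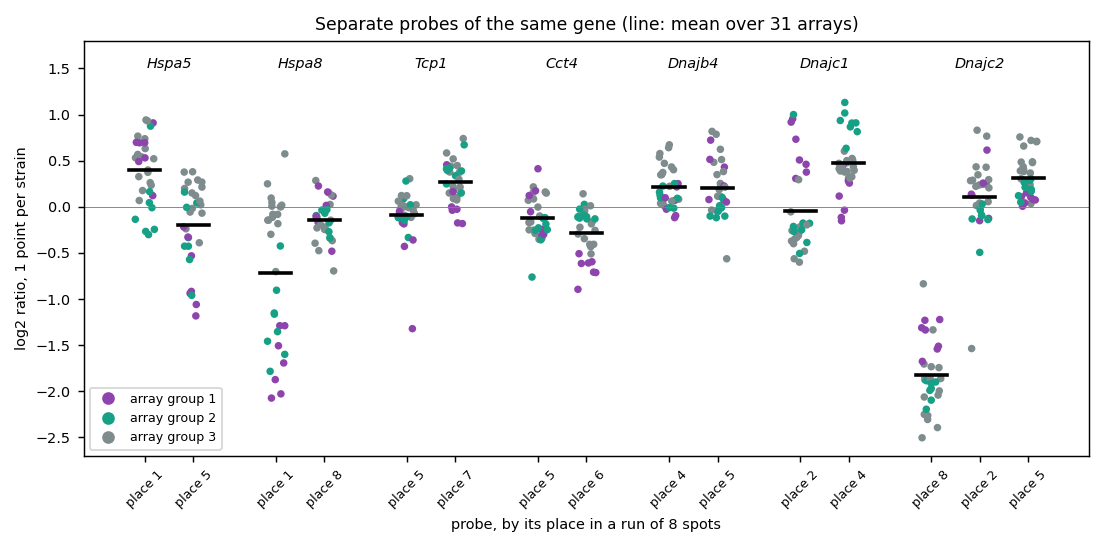
Log2 ratio of every probe of the 7 members with more than 1 probe, with 1 point per strain coloured by array group and a line at the mean over 31 arrays. The Dnajc2 probe at place 8 averages −1.82, below both other probes of the gene, and the place 1 probe of Hspa8 averages −1.68 in array group 1, −1.23 in group 2 and −0.05 in group 3.

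The arrays fell into 3 groups that the labels do not name, found from the principal components of spots that are not members. The first component held 29.1% and the second 12.1% of the variance. Array group 1 held 7 arrays, 2 of strains 33 to 42 and 5 of strains up to 32. Array group 2 held 8 arrays, 5 and 3, and array group 3 held 16 arrays, all of strains up to 32. Members differed between these groups about as much as other features did. The median size of the gap between array groups 1 and 3 was 0.266 over members and 0.268 over all features, and between groups 2 and 3 it was 0.206 and 0.178.

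Array groups 1 and 3 did not overlap for 6 members (7.41%, against 9.06% of all features), which were Hspa2, Hspa8, Cct3, Dnajb5, Dnajb12 and Dnajc18. Hspa2 ranged from 1.25 to 2.18 in array group 1, from 0.09 to 0.52 in group 2 and from −0.10 to 1.06 in group 3. Dnajb5, a J protein of the B class, ranged from −0.72 to −0.07 in array group 1 and from 0.26 to 1.52 in group 3. Hspa8 ranged from −1.03 to −0.59 in group 1, from −0.91 to −0.27 in group 2 and from −0.29 to 0.15 in group 3. The low gene means of Hspa8 thus came from both smaller groups, but through only 1 of its 2 probes. The place 1 probe averaged −1.68, −1.23 and −0.05 in array groups 1, 2 and 3. The place 8 probe averaged −0.03, −0.14 and −0.19, in the opposite order. Array groups 2 and 3 did not overlap for 2 members (2.47%, against 4.04%). One was Hspb11, with a mean of −0.73 in group 2 and −0.12 in group 3, and the other was Dnajc22, at −0.34 and 0.20.

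**Figure D4:**
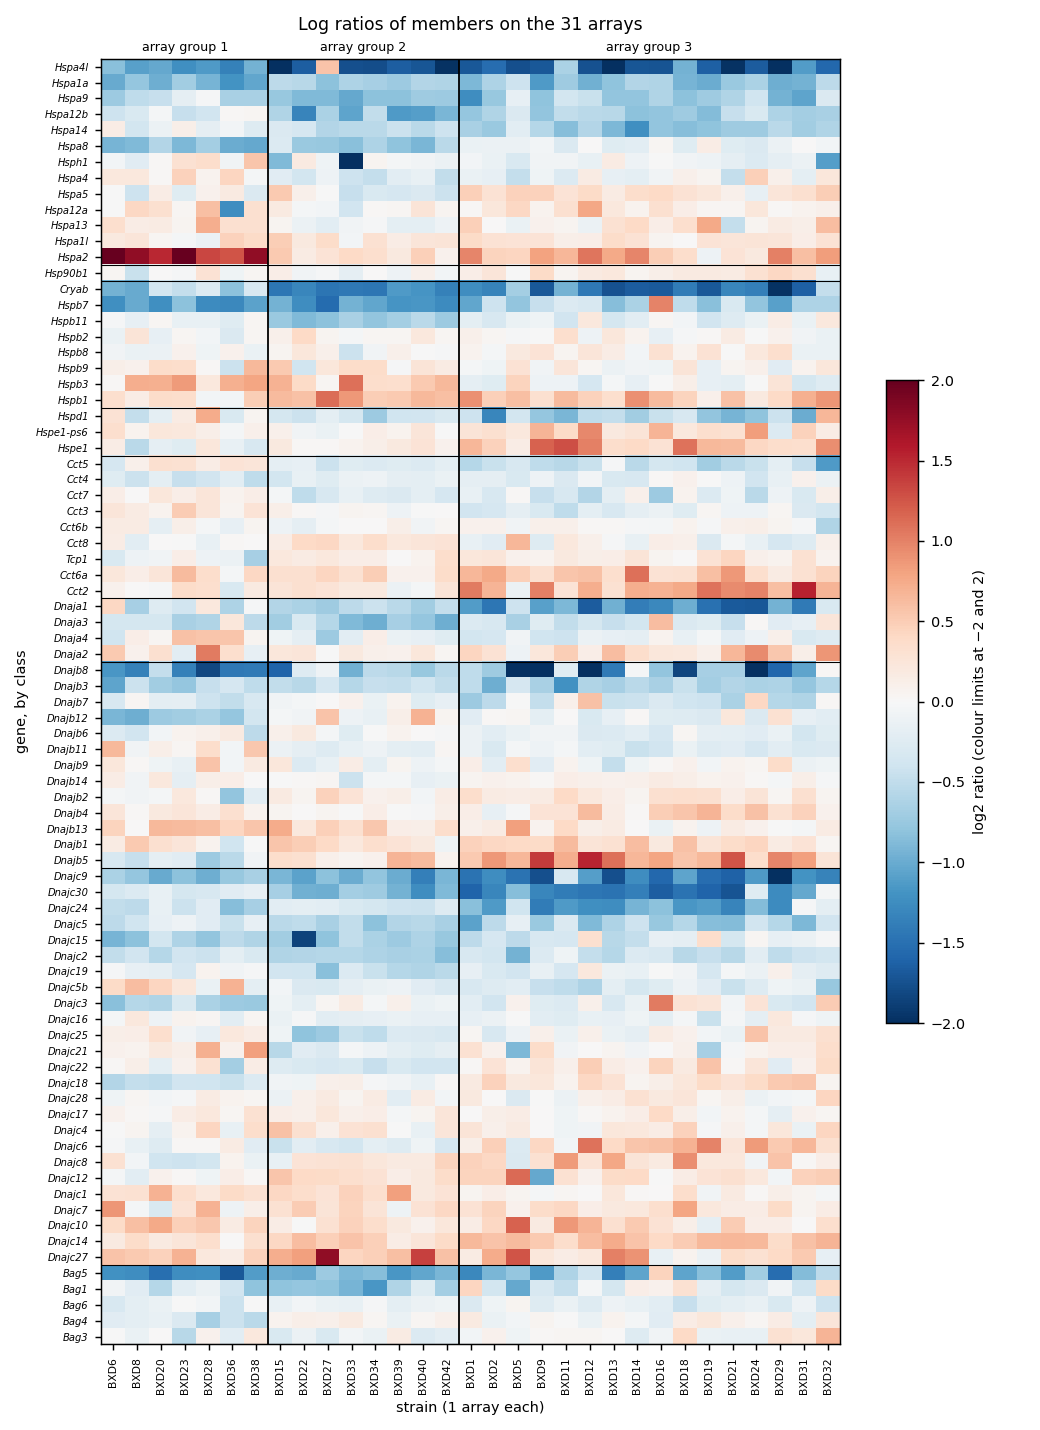
Log2 ratios of the 81 genes (rows, by class) on the 31 arrays (columns, by array group), with colour limits at −2 and 2. Hspa2 is deep red on the 7 arrays of array group 1, and the mostly blue rows include Hspa4l, Cryab, Dnajc9 and Bag5, whose probes lie at place 8.

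The spread over strains, as the interquartile range of 31 log ratios, had a median of 0.326 over members and 0.313 over all features. It was widest for Dnajc30 at 1.03, Dnajb8 at 0.98 and Dnajc24 at 0.84, followed by Dnaja1 at 0.75, Hspb3 at 0.72 and Dnajc6 at 0.72. Dnajc6, the auxilin that recruits Hspa8 to clathrin coats, averaged 0.16 ± 0.08 (limma adjusted p = 0.0539), from −0.44 in BXD15 to 1.09 in BXD12. Its mean was −0.06 in array group 1, −0.28 in group 2 and 0.47 in group 3. The narrowest ranges were those of Dnajc17 at 0.11, Cct6b at 0.13 and Hsph1 at 0.13, the last beside its 3 low strains.

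The median of each class on single arrays gives the view by strain. For HSP70 and HSP110 it ranged from −0.54 in BXD33 to 0.03 in BXD20. The A class of J proteins, with 4 genes, ranged from −0.64 in BXD27 to 0.38 in BXD28. The mitochondrial chaperonin class, with 3 genes including Hspe1-ps6, ranged from −0.47 in BXD8 to 0.97 in BXD12. The value of 0.97 is that of Hspe1-ps6 itself, the pseudogene of the lid. The cytosolic chaperonin ranged from −0.18 in BXD2 to 0.15 in BXD28, with an SD over arrays of 0.084. That was near the SD of the C class of J proteins (0.091), the small heat shock proteins (0.095) and the B class (0.097). Over all members the median ran from −0.15 in BXD33 to 0.08 in BXD18.

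Strains numbered 33 to 42 were compared with strains numbered up to 32. Of the 81 members 2 differed (limma, adjusted p under 0.05), both with a lower mean in strains 33 to 42, against 0.48% of all features. Hspa5, the HSP70 of the endoplasmic reticulum, was the first. In strains 33 to 42 it ranged from −0.46 to 0.18, with a median of −0.30, and in strains up to 32 from −0.41 to 0.52, with a median of 0.26. The means were −0.27 (SD 0.21, n = 7) and 0.21 (SD 0.24, n = 24), a difference of −0.48 ± 0.10 (limma adjusted p = 0.0349). The ranges overlapped. Each Hspa5 value is the mean of 2 probes, which differed in their array group means. The place 1 probe averaged 0.59, 0.02 and 0.50 in array groups 1, 2 and 3. The place 5 probe averaged −0.74, −0.32 and 0.10. The strain set difference of each probe is not given here, so the call holds for their mean only.

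Dnajc22, a J protein whose Drosophila relative acts in clathrin-mediated endocytosis, was the second. It ranged from −0.68 to 0.14 in strains 33 to 42, with a median of −0.38, and from −0.34 to 0.57 in strains up to 32, with a median of 0.09. The means were −0.34 (SD 0.25, n = 7) and 0.11 (SD 0.25, n = 24), a difference of −0.45 ± 0.11 (limma adjusted p = 0.0491). All 7 arrays of strains 33 to 42 belong to array groups 1 and 2. With array group as a block the differences were −0.31 for Hspa5 (limma adjusted p = 0.539) and −0.18 for Dnajc22 (adjusted p = 0.812). In that fit 0 of 21262 features were called, and 5 members and 1551 features had an unadjusted p under 0.05.

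Within array group 1 the Hspa5 means were −0.05 in strains 33 to 42 (n = 2) and −0.08 in strains up to 32 (n = 5). Within array group 2 they were −0.36 (n = 5) and 0.20 (n = 3), a difference of −0.57 (limma adjusted p = 0.623). The Dnajc22 difference was −0.33 within array group 1 and −0.07 within group 2. Neither gene was called within array group 1 or 2, but 0 of 21262 features were called in either fit. With so few arrays these fits cannot decide whether the differences hold within groups. Array group 3 held no strain from 33 to 42.

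The next members by adjusted p missed the threshold. Hspa8 averaged −0.82 in strains 33 to 42 and −0.32 in strains up to 32, a difference of −0.50 ± 0.13 (limma adjusted p = 0.0568). Hspb3 averaged 0.64 and 0.10, a difference of 0.54 ± 0.14 (adjusted p = 0.0616). Dnajb1 averaged 0.07 and 0.36, a difference of −0.28 ± 0.08 (adjusted p = 0.0774), and Cct2 0.05 and 0.56, a difference of −0.51 ± 0.16 (adjusted p = 0.0911). With array group as a block the differences were −0.18 for Hspa8, 0.23 for Hspb3, −0.37 for Dnajb1 and −0.20 for Cct2. Over all members 18 had an unadjusted p under 0.05 (22.2%, against 20.2% of features), and 16 of these were negative. The matching negative share over all features is not given here, so the split cannot be read as particular to the family. The median difference was −0.05 over members and 0.01 over all features.

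**Figure D5:**
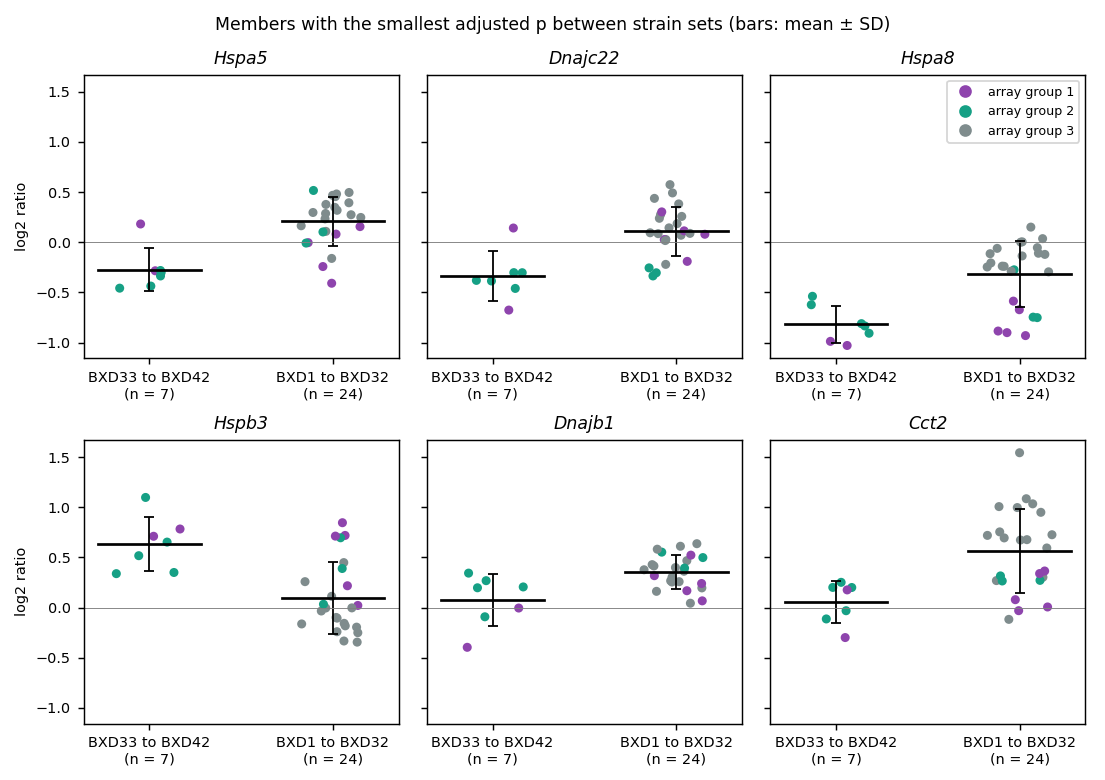
Log2 ratios of the 6 members with the smallest adjusted p between strain sets, with 1 point per strain coloured by array group and bars at the mean ± SD for strains 33 to 42 (left, n = 7) and strains up to 32 (right, n = 24). The grey points of array group 3 occur only on the right, and the sets overlap for every gene shown.

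Partner genes were then set side by side over strains, within array groups, to ask whether partners varied together between strains. Of 7 pairs listed, 5 had both genes measured, which gave 15 correlations, 9 of them positive. None passed after adjustment (0 of 15), and 1 had an unadjusted permutation p under 0.05. That was Hspd1 with Hspe1 in array group 1, with r = 0.817 and rho = 0.679 over 7 strains (exact permutation p = 0.0266, adjusted p = 0.399). Without the 2 strains farthest from the median of Hspd1 it was 0.379, and it was −0.147 in array group 2 and 0.126 in group 3. Hspa5 with Hsp90b1, both of the endoplasmic reticulum, gave 0.558, 0.605 and −0.421 in array groups 1, 2 and 3 (exact or permutation adjusted p of 0.603, 0.43 and 0.43). Cryab with Hspb2 gave −0.108, 0.312 and −0.0542, and Hspa8 with Dnaja1 0.146, 0.318 and −0.077. Hsph1 with Dnajb1 gave −0.242, 0.0367 and 0.457. Each of the 5 pairs thus had values of both signs across the array groups.

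Subunits of the cytosolic chaperonin, which assemble in fixed proportions, had a mean pairwise correlation over strains of 0.0621 in array group 1, 0.0598 in group 2 and −0.00903 in group 3. Over all named genes these means were 0.000949, 0.00115 and 0.00252. For all 81 members they were 0.0323, 0.0126 and 0.00447. The points share arrays, and these values are given as a description.

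Other genes of protein folding and quality control were listed for comparison, and 55 of 59 were measured. Of these, 21 were called positive (38.2%, against 42.1% of all features) and 21 negative (38.2%, against 33.9%). Without probes at place 8 the counts were 21 (47.7%, against 46.7%) and 12 (27.3%, against 27.8%) of 44. Pfdn5, a prefoldin subunit that passes clients to the cytosolic chaperonin, averaged −1.19 ± 0.06 and was below 0 on all arrays without a probe at place 8. P4hb, a protein disulfide isomerase, averaged 0.75 ± 0.05 and was above 0 on all arrays. Xbp1, a transcription factor of the unfolded protein response, averaged −1.38 ± 0.10, Trap1, the mitochondrial HSP90, −1.15 ± 0.08, Cdc37l1 −1.08 ± 0.10 and Ubqln2, a proteasome shuttle, −0.77 ± 0.04, all at place 8.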

How the data were processed

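Brain RNA from each of 31 BXD/TyJ strains was set against C57BL/6J RNA on a 2-colour array of its own. The authors deposited 1 table of log ratios, read here as log2, for 23040 spots with 0 missing values. R 2.0.0 and limma were used by the submitters, per the submitters' processing notes. Not given in the sources used here is how background was corrected, arrays normalised and spots filtered. After sorting, the columns were identical (largest difference 0), with a common median of 0.01 and SD of 0.60, so a shift of a whole array cannot be seen. Dim and saturated probes could not be marked without scanner files, and the number of arrays limits the precision. The lowest correlation between arrays was 0.285.

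Probes were named from the platform annotation, where 16874 had 1 symbol, 134 several and 6032 none. Probes of a gene were averaged, which left 15096 genes and 6166 unnamed spots, in all 21262 features. Means were tested against 0, and strains 33 to 42 against strains up to 32, with limma 3.58.1 in R 4.3.3 (two-sided, Benjamini-Hochberg over all features at 0.05). The reference stands for 1 control sample, so the first test leaves out its own spread. That test also treats the arrays as independent, so its SE and p leave out their grouping. Correlations used exact permutations for array groups 1 and 2 and 100000 permutations for group 3 (two-sided, scipy 1.17.1, numpy 2.4.6, pandas 2.3.3, Python 3.11.15), and plots used matplotlib 3.10.9. Array groups 1 and 2 had scores over 0.2 on the first and second component. Both fits were tested on simulated data with independent normal values on every array. The simulation held no array groups and no effect of place, so it does not cover these features of the data. RefSeq (GRCm38.p6) held 80 of the 81 symbols.

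The members, lists and tests were chosen with earlier results of these data known. Named genes were, per class, up to 5 with the smallest adjusted p, those with a probe at place 8, with probes of opposite sign, with the 6 widest and 3 narrowest ranges, with the 6 smallest adjusted p between strain sets, and the paired genes, 51 in all. The other members named were chosen after their values were seen. Of the other folding genes, the 6 with the smallest adjusted p were named.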

Additional observations from a re-analysis of the deposited data

Results flagged for a closer look

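Among the 7 strains numbered 33 to 42, each member was checked for 1 array far from the other 6. Of the 81 members 14 had such an array (17.3%), against 14.7% of all 21262 features. Chance gives about 1 in 20 for independent values. Of the 14 values, 11 came from BXD36 and BXD38, the 2 arrays of this set that belong to array group 1 (78.6%, against 81.6% of the features found this way). On BXD36 they were Hspb1 at −0.052, Dnaja3 at 0.23, Bag5 at −1.69, Hspa5 at 0.18 and Dnajc5b at 0.69. On BXD38 they were Cct4 at −0.50, Dnaja1 at −0.019, Cct3 at 0.28, Dnajb11 at 0.53, Dnajc16 at 0.042 and Dnajc21 at 0.82. The part of array group in these values was not tested.

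The other 3 values came from single arrays of array group 2. Dnajc1 lay at 0.82 on BXD39, where the nearest other strain had 0.46. Dnajc27 lay at 1.36 on BXD40, with the nearest at 0.60. Hsph1 lay at −2.05 on BXD33, with the nearest at −0.11.

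The strain sets differed for Hspa5, the mean of 2 probes, by −0.48 between strains 33 to 42 and strains up to 32 (limma adjusted p = 0.0349). They also differed for Dnajc22, by −0.45 (limma adjusted p = 0.0491). Both calls were lost with array group as a block, a fit in which 0 of 21262 features were called.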

How the results depend on the processing

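No paired analysis was possible because the replicate numbers are strain numbers and no strain appears in both sets. Of the members, 60 differed from 0 in the tests reported, against 76.1% of all features. Tested for a change of 1.2-fold (limma), 24 did so, against 27.9% of all features. Of the 24, 6 means were positive (background 12.4%) and 18 negative (15.6%). Without probes at place 8 the negative members numbered 17 of 64 (26.6%, against 27.8% of features). With those probes they numbered 33 of 81 (40.7%, against 33.9%). With places centred they numbered 32 of 81, where 34.7% of features were called negative. The negative genes of the other folding list numbered 12 of 44 (27.3%) without place 8 and 21 of 55 (38.2%) with it. Leaving out place 8 also moved the class medians of HSP70 and HSP110 to 0.10 and of the C class of J proteins to 0.11. The median over all features moved with them, from 0.04 to 0.08. The search for 2 repeats in place of 3 in promoters gave 17 genes, against 4. With 2 repeats 22.4% of member windows matched, against 15.1% of all windows, and with 3 repeats 7.06%, against 0.603%.

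Between strain sets 2 members were called by limma, and 0 with array group as a block, 0 within array group 1 and 0 within array group 2. In each of these fits 0 of 21262 features were called, and 5 members had an unadjusted p under 0.05. Over all features 1551 had one in the block fit, and the counts within groups are not given here. The number of called members was 1 without probes at place 8, against 0.318% of features, and Dnajc22 was lost (limma adjusted p = 0.0515). It was also 1 with each spot as its own feature, against 0.482% of spots. In that fit the 2 Hspa5 probes are tested apart, and the value of each is not given here. The Hspa5 difference turned to 0.032 within array group 1.

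Signs of means turned for Dnajc2 without probes at place 8 (0.21). Without array group 1 they turned for Bag4 (0.039), Dnajb9 (−0.022) and Dnajc21 (−0.080). Without array group 2 they turned for Bag3 (0.014), Cct6b (0.0038), Cct8 (−0.034), Dnajc25 (0.059) and Hspa4 (0.010). With arrays centred on their median they turned for Dnajc22 (−0.0056), Dnajb9 (−0.0071) and Dnajc21 (−0.0074). The next 2 settings were added after the data were seen. Over array group 3 alone the turned means were those of Hspb3 (−0.081), Bag3 (0.057), Bag4 (0.026), Dnajc3 (0.016), Cct8 (−0.036), Dnajb9 (−0.013), Dnajc21 (−0.0054) and Dnajc25 (0.041). With each place centred on its median they were those of Hspd1 (0.044), Dnajb7 (0.22), Dnajc3 (0.30), Dnajc22 (−0.068), Cct8 (−0.0025), Dnajb14 (−0.069), Dnajb9 (−0.077), Dnajc18 (−0.036), Dnajc21 (−0.045) and Dnajc28 (−0.025). Of the means turned by centring places, those of Dnajb7, Dnajc3 and Dnajb14 were past the limma threshold. Over single genes and settings 750 values kept direction and side of the threshold, 70 lost the call, 30 gained it and 31 turned. The cause was not tested. The robust variance changed no call of a named gene, and the adjusted pair correlations stayed at 0 calls with Spearman's rho and without the 2 farthest strains. Without place 8 only Hsph1 with Dnajb1 and Hspa5 with Hsp90b1 could be correlated, with 0 calls in 6 values.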

Other observations

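Marker lists of brain cell types, which log ratios cannot turn into levels, were set beside the chaperones. Of all features 42.1% were called positive and 33.9% negative, and 46.7% and 27.8% without probes at place 8. Calls in either direction took in 75% of the oligodendrocyte, 71.4% of the astrocyte and 75% of the neuron genes, against 76.1% of all features. Of 8 oligodendrocyte genes 6 were called positive and 0 negative (limma), none of them with a probe at place 8, with Mal at 0.44, Cnp at 0.42, Mobp at 0.41 and Mog at 0.38. Of 7 astrocyte genes 1 was called positive, Gfap at 0.22, and 4 negative, with Gja1 at −0.99, Sox9 at −0.51 and Aldoc at −0.36. Neuron genes had 3 calls in each direction of 8, and microglia genes 2 in each direction of 4, both of the negative ones at place 8. Choroid plexus genes had 2 in each direction of 4, blood genes 0 positive and 2 negative of 3, and pituitary genes 2 positive and 0 negative of 5. Their part in the chaperone values was not tested.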
